A study of Mus musculus with 67 samples.

Results

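The change in chromatin accessibility of p3 neural progenitors (NPs) between day 5 and day 6 of differentiation was described from 9 of the 67 samples of the series, 5 from day 5 and 4 from day 6, chosen by their labels. All 67 samples came from HM1 mouse embryonic stem cells driven to neuromesodermal progenitors (NMPs) by day 3 and then kept in 100 nM retinoic acid with a set concentration of SAG, an agonist of Smoothened that stands in for the Hedgehog ligand of the ventral midline. The day 5 samples were 3 replicates at 100 nM SAG and 2 at 500 nM, and the day 6 samples were 2 replicates at each of these concentrations. Accessibility was measured by CaTS-ATAC, in which fixed cells are transposed, stained for intracellular transcription factors and sorted. The cells carried no engineered allele by their labels, and the model is 1 cell line in culture, so that p3 here means cells within a sorting gate and not cells taken from an embryo.

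p3 NPs are the most ventral progenitors of the developing spinal cord outside the floor plate, and they give rise to the V3 interneurons. They arise under strong Hedgehog signalling, and the forkhead factors FOXA1 and FOXA2 and the homeodomain factors NKX2-9 and NKX6-1 are known from this domain or its neighbours. As progenitors age they pass from proliferation towards neurogenesis, and the regulatory elements that are open in them change with it. An element here is a stretch of open chromatin called by the authors over the series, with the gene whose transcription start site (TSS) is nearest. The nearest gene is a label for an element and need not be the gene it acts on.

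The central 300 bp of 6 elements that changed between the days are shown because results below turn on them and so that the motif counts given later can be read in the letters. The sequences are those of the plus strand of GRCm38, the assembly of mm10, and capitals mark each exact match of the motifs that were searched. The first 3 were more accessible at day 6. The window near Cyp26b1 (chr6:84630371-84630670) holds the E-box CAGCTG once, the E-box CAGATG on the minus strand at 2 places, the short NFI motif TTGGCA and the SOX motif ACAATG. The window in an intron of Bmpr1b (chr3:141872499-141872798) holds the SOX, FOX (TGTTTAC) and NK2 (CACTTGA) motifs once each. The window in an intron of Chat (chr14:32439859-32440158), whose nearest TSS is that of Slc18a3, holds CAGCTG near its start, the other E-box CAGATG on the minus strand and the homeodomain motif TAATTA near its end.
Cyp26b1, higher at day 6: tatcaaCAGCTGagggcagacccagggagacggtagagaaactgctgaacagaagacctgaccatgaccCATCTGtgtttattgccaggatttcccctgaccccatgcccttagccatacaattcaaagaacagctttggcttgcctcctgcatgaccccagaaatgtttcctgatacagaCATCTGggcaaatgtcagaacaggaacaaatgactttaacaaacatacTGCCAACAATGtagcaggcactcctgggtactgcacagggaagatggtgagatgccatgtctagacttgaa
Bmpr1b, higher at day 6: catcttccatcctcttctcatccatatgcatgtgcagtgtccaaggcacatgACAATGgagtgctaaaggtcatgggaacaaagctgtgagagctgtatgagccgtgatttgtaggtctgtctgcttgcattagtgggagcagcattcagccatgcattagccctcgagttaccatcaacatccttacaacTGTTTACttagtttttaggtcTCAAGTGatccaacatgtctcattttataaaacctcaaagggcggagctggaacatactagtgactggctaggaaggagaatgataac
Slc18a3 and Chat, higher at day 6: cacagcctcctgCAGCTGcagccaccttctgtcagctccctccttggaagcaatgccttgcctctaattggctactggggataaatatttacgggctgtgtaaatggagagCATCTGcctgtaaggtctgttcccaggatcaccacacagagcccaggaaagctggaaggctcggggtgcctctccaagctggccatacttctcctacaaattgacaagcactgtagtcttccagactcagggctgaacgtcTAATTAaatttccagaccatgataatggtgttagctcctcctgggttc
The other 3 were less accessible at day 6. The window near Nkx2-9 (chr12:56633211-56633510) holds none of the 16 motifs searched. The window in an intron of Timp3 (chr10:86304618-86304917) holds CAGCTG, the TEAD motif GGAATG on the minus strand at 2 places and the GLI motif GACCACCCA. The window near Slc1a3 (chr15:8632366-8632665) holds CAGCTG, the SOX motif, the NK2 motif and the TEAD motif.
Nkx2-9, lower at day 6: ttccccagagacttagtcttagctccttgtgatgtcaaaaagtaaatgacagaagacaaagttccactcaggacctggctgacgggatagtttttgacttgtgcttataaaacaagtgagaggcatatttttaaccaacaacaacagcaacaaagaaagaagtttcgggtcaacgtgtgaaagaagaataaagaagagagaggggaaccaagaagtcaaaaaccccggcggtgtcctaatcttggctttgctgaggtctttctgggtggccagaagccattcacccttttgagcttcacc
Timp3, lower at day 6: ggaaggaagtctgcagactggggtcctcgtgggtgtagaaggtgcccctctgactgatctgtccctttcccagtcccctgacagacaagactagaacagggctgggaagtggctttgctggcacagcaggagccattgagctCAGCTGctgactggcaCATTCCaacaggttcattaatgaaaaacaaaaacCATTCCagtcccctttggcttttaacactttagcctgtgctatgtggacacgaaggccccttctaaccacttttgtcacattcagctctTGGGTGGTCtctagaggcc
Slc1a3, lower at day 6: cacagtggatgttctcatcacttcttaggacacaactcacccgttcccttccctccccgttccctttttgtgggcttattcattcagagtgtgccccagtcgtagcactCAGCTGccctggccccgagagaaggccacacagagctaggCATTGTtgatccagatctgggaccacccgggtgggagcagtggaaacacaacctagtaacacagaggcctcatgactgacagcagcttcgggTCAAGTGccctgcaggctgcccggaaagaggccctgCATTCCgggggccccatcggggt

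Depth in the 9 samples was between 12529289 and 23859572 reads in elements, the lowest being replicate 2 of day 6 at 100 nM. Samples of the same day and replicate number from 100 and 500 nM SAG were more alike (squared correlation across elements 0.965 to 0.974 in 4 pairs) than replicates of the same condition (0.865 to 0.958 in 6 pairs). Across conditions, the deviations of same-numbered samples from their group means correlated in every one of 12 pairs (r from 0.294 to 0.850, median 0.558), though with 2 samples in 3 of the 4 groups the deviations within a group mirror each other and these pairs repeat fewer independent values. The replicate numbers, which the series gives as independent differentiations, therefore paired the samples, and the 9 samples hold 3 differentiations at day 5 and 2 at day 6. A p over 9 samples treats them as independent, so the count of changed elements is also given from the mean over SAG of each differentiation. The other counts below were not repeated in that way.

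Accessibility rose more often than it fell between day 5 and day 6. Of 32208 elements with a mean above 100 normalised counts, 1118 (3.47% of those tested) changed more than 2-fold at an adjusted p under 0.01 by limma with SAG as a covariate. Of these, 853 were higher at day 6 (2.65%) and 265 were lower (0.823%). A change over 4-fold was found in 84 elements (0.261%), 79 of them higher (0.245%) and 5 lower (0.0155%). The 853 elements were annotated to 758 genes and the 265 to 255, and 29 genes had elements in both directions. An unadjusted p under 0.05 was reached by 11115 elements, and the median change over all tested was 0.08 on the log2 scale.

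With the replicate number as a block, 2197 elements were called (6.82%), 1644 of them higher (5.1%) and 553 lower (1.72%), and 119 passed 4-fold. The block pairs the days within a differentiation but still counts its 100 and 500 nM samples of the same day as independent. That limit holds for every count and p given below with the block. When samples were averaged over SAG, leaving 3 values against 2, no element passed an adjusted p of 0.01 by limma, 7106 had an unadjusted p under 0.05 and the lowest adjusted p was 0.039. At an adjusted p under 0.05 that analysis called 309 elements over 2-fold, 234 higher and 75 lower. All 1118 elements kept their direction in it, as their choice from the same samples favours. The count fell to 710, 691, 548, 599 and 506 without, in turn, day 5 replicates 2 and 3 at 100 nM, day 5 replicate 2 at 500 nM, and day 6 replicates 2 and 3 at 100 nM. Centring each sample on its median lowered the share of higher elements among those called from 76.3% to 63.0%, and removing each sample's trend over base composition and level lowered it to 59.8%. Higher elements outnumbered lower ones under every alternative that called any.

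Each pair of samples with the same SAG concentration and replicate number gave a change of its own. All 853 higher and all 265 lower elements moved in their direction in the 4 pairs, as the threshold favours, and the change was over 2-fold in all 4 pairs for 519 and 106. The median change of the 853 elements was 1.62 in replicate 2 and 1.37 in replicate 3 at 100 nM, and 1.48 and 1.19 at 500 nM. For the 265 it was -1.09 and -1.31 at 100 nM, and -1.28 and -1.60 at 500 nM. The 5 day 5 values and the 4 day 6 values did not overlap for 852 and 264 of them, as they did not for 6991 of all elements tested (21.7%).

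**Figure D1:**
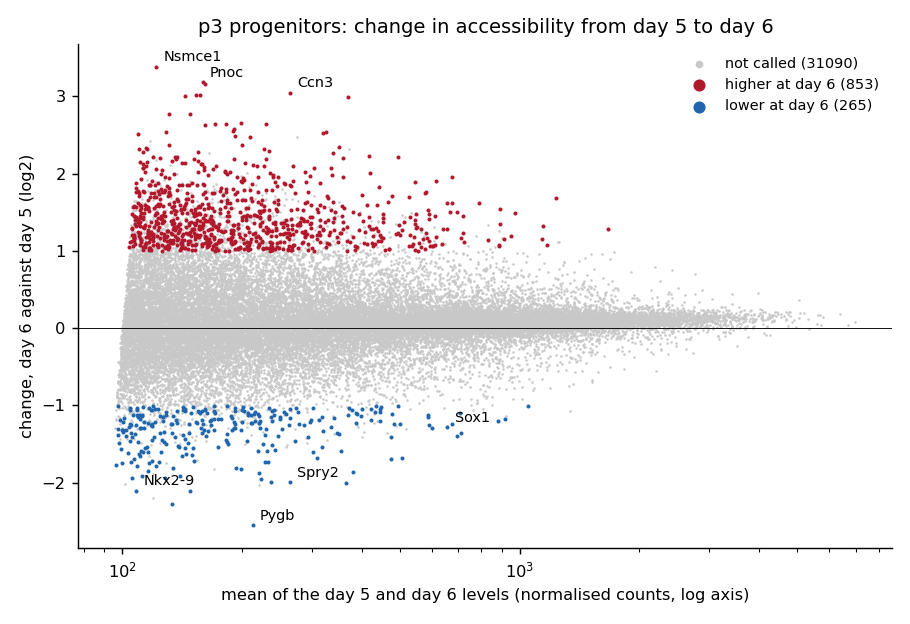
The change from day 5 to day 6 (log2, vertical) of each of the 32208 elements tested is plotted against the mean of its day 5 and day 6 levels (normalised counts, log axis), with the 853 higher elements in red, the 265 lower ones in blue and the rest in grey. The increases near Nsmce1, Pnoc and Ccn3, among the 5 largest, exceeded 3 on the log2 scale and the largest decrease, near Pygb, was -2.55.

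The largest increase was at an intergenic element 25903 bp upstream of Nsmce1 (chr7:125516843-125517849). Its level was 35.0, 17.8 and 26.4 normalised counts in replicates 1 to 3 of day 5 at 100 nM and 19.5 and 9.14 in replicates 2 and 3 at 500 nM. At day 6 it was 384 and 201 in replicates 2 and 3 at 100 nM, and 181 and 119 at 500 nM. Every day 6 sample was above every day 5 sample, and replicate 2 at 100 nM was the highest. The log2 change was 3.38 ± 0.32 (SE, adjusted p = 0.00051 by limma).

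The second was 72457 bp upstream of Pnoc, which encodes the precursor of the neuropeptide nociceptin (chr14:65497372-65498487). The level was 34.1, 16.6 and 47.5 at 100 nM and 13.6 and 53.2 at 500 nM on day 5, and 196 and 338 at 100 nM and 188 and 421 at 500 nM on day 6. Replicate 3 was above replicate 2 on both days at both concentrations, and the days did not overlap. The log2 change was 3.18 ± 0.46 (SE, adjusted p = 0.0019).

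The other elements of the 5 with the largest increases were in exon 13 of Alg8, nearest Ndufc2, 65075 bp downstream of the TSS of Ccn3, a matricellular protein gene, and in intron 2 of Bmpr1b, which encodes a type I BMP receptor. The element in Alg8 rose from 31.6 ± 6.40 (SD, n = 5) to 292 ± 58.3 (SD, n = 4), a log2 change of 3.16 ± 0.22 (SE). The element near Ccn3 rose from 53.6 ± 25.5 to 475 ± 277, and as near Pnoc its replicate 3 values (511 and 853) were above its replicate 2 values (257 and 278) at day 6. The Bmpr1b element (chr3:141872266-141873032) varied little between replicates, with 239 to 296 at day 6 against 24.9 to 49.2 at day 5. Its log2 change was 3.01 ± 0.21 (SE, adjusted p = 0.00021).

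Pygb had the strongest decrease, at a site between genes 2476 bp upstream of the TSS. The gene encodes the brain form of glycogen phosphorylase. The element's (chr2:150783698-150784943) level at day 5 was 124, 378 and 463 in replicates 1 to 3 at 100 nM and 450 and 416 at 500 nM, and at day 6 it was 94.0 and 67.1 at 100 nM and 39.3 and 37.9 at 500 nM. The days did not overlap, although replicate 1 of day 5 was far below the other day 5 samples. The log2 change was -2.55 ± 0.44 (SE, adjusted p = 0.0050). Elements near Atp6v0a1, a subunit of the vacuolar proton pump, and near Fam174a fell by 2.28 and 2.11 on the log2 scale, and an element in intron 1 of Timp3, an inhibitor of metalloproteinases, fell by 2.01.

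**Figure D2:**
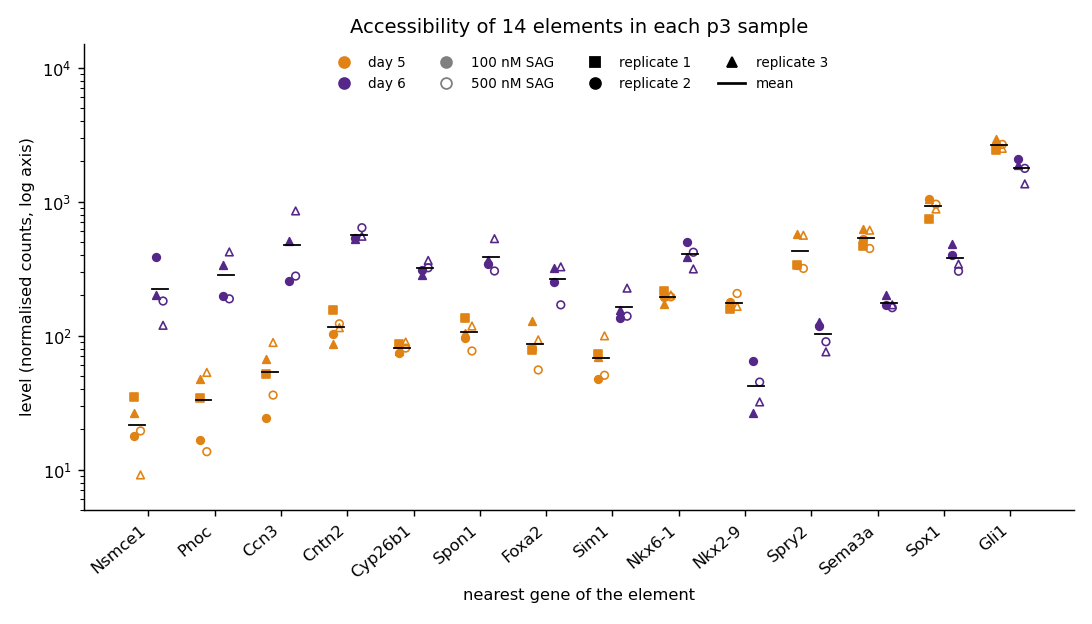
The level of 14 elements (normalised counts, log axis) is shown in each of the 9 p3 samples, day 5 in orange and day 6 in purple, with filled symbols for 100 nM and open ones for 500 nM SAG, a shape for each replicate number and a bar for the mean of each day. The days do not overlap for any of the 14, and the element near Gli1 moved least, from a mean of 2625 to 1777.

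At genes of p3 identity the elements moved in both directions. Of 94 tested elements annotated to 13 genes of this list, 5 were higher and 3 were lower, or 5.32% and 3.19% against 2.65% and 0.823% of all elements, with a median change of 0.08, as over all elements tested. With the replicate block 11 were higher and 3 lower. The lower ones included both called elements of Nkx2-9, a homeobox gene of the ventral-most NPs. The element 20077 bp upstream of its TSS (chr12:56632960-56633762), whose centre is printed above, was at 158, 177 and 166 at 100 nM and 206 and 165 at 500 nM on day 5. On day 6 it was at 64.3 and 26.4 at 100 nM and 45.0 and 32.0 at 500 nM. Every day 6 sample was far below every day 5 sample. The log2 change was -2.11 ± 0.26 (SE, adjusted p = 0.0011), and the element at -8166 bp fell by 1.19. The element at the Nkx2-9 promoter was at 2376 ± 122 (SD, n = 5) and 1914 ± 225 (SD, n = 4), a change of -0.31 that missed the threshold (adjusted p = 0.023).

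Foxa2, a forkhead gene of the floor plate and p3 domain, had an element that rose and one that fell. The one 65867 bp from its TSS (chr2:147980705-147981500) had levels of 55.5 to 129 in the 5 day 5 samples and of 170 to 326 in the 4 day 6 samples, with a log2 change of 1.64 ± 0.26 (SE, adjusted p = 0.0034). It was more open in the other NP types, at 383 and 589 on days 5 and 6 in pMN, 679 and 909 in p2 and 903 and 1268 in p0-1, and its change in pMN was 0.66 (adjusted p = 0.0078). The one at 41822 bp fell by 1.23. Nkx6-1, a homeobox gene of the ventral NPs, had 3 of its 19 tested elements called, at 232438, 84971 and 250113 bp from the TSS, with changes of 1.04, 1.40 and 1.21. An element 93277 bp upstream of Sim1, a gene of V3 neurons, rose by 1.25 ± 0.25 (SE, adjusted p = 0.0087), from 47.1 to 99.7 at day 5 to 135 to 226 at day 6. Foxa1 had an element 6808 bp from its TSS that was 0.61 ± 0.12 higher (SE, adjusted p = 0.0077) without reaching 2-fold, with 746 to 943 at day 5 and 1131 to 1528 at day 6. For the elements given here by their sample values the days did not overlap.

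The elements nearest the TSS moved little. For 11 genes of p3 identity, the Hedgehog pathway and progenitor age, the change at the nearest element ranged from -0.56 (Gli1) to 0.39 (Nfib). None passed 2-fold, and 3 had an adjusted p under 0.01, those of Gli1, Nfib and Nkx6-1. The nearest element of Foxa2 lay 1458 bp from the TSS. In p3 it was at 1336 ± 215 (SD, n = 5) on day 5 and 1662 ± 486 (SD, n = 4) on day 6. In pMN, the progenitors of motor neurons, it was at 406 and 277. The Foxa1 promoter was at 737 and 809 in p3 and at 503 and 545 in pMN. These levels go with the p3 label of the samples, while the Nkx2-9 promoter was higher in p3 than in pMN (1868) at day 5 and lower than in pMN (2091) at day 6. These levels between NP types were not tested.

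No element of the Hedgehog pathway passed both thresholds, with 56 tested at 14 genes and a median change of 0.03, where 3.47% of all elements did. At Gli1, a transcriptional effector and target of the pathway, the element in intron 2 (chr10:127338779-127342705) was lower at day 6 at an adjusted p of 0.0060 but by less than 2-fold. It was at 2438, 2577 and 2944 at 100 nM and 2673 and 2495 at 500 nM on day 5, and at 2092 and 1890 at 100 nM and 1770 and 1356 at 500 nM on day 6. The log2 change was -0.56 ± 0.10 (SE), and the 500 nM samples were the lowest of day 6. Ptch1, the receptor that the pathway induces, had its lowest p at an intergenic element 66664 bp from the TSS, with 462 to 807 at day 5 and 268 to 366 at day 6 and a log2 change of -0.87 ± 0.15 (SE, adjusted p = 0.0058). Its element at -7090 bp was at 1129 ± 91.2 and 1030 ± 163, with overlapping days.

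Floor plate genes, which mark the neighbouring midline cells, had 2 higher elements of 67 tested (2.99%, near the 2.65% of all elements), both near Spon1, an F-spondin gene, and 0 lower. The list's median change was 0.38, against 0.08 over all elements, and with the replicate block 10 elements were higher and 1 lower. The stronger Spon1 element (chr7:113679264-113680695) was at 76.9 to 135 in day 5 samples and 304 to 529 in day 6 samples, a log2 change of 1.84 ± 0.21 (SE, adjusted p = 0.0011). Summed over the 29 elements of the floor plate markers, the level was 6809 to 9683 in the day 5 samples and 10192 to 15619 in the day 6 samples, so the days did not overlap. This was not particular to these markers. The sums of the Notch, proneural, Hox, retinoic acid, and Wnt and BMP lists given below did not overlap either. Nor did those of the axon guidance, adhesion, neurotransmitter receptor and full floor plate lists. The sums of the remaining lists overlapped, those of p3 identity and the Hedgehog pathway among them. All 6 marker genes had a tested element. In bulk samples a larger share of floor plate cells in the gate and a greater opening in p3 cells cannot be told apart here, and the study's own control cultures for floor plate cells were not analysed.

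The sort used antibodies to several NP transcription factors and was set to keep p3 NPs apart from neurons, pMN and the more dorsal NPs. The summed levels of the p3 markers were 22677 to 30169 at day 5 and 26751 to 31732 at day 6, overlapping over all samples but higher at day 6 in all 4 matched pairs, as were those of the floor plate markers. Of 25 elements of pMN and motor neuron markers 2 were called higher (8%, against 2.65% of all elements). Both were near Slc18a3 and Chat, the acetylcholine transporter and synthase genes. The summed level over the list was 10869 to 12978 at day 5 and 11110 to 12669 at day 6. Of 69 elements of p0 to p2 and dorsal markers 3 were higher (4.35%), 2 near Olig3 and 1 near Dbx2. The sums overlapped between the days (30142 to 32750 and 28855 to 33402). Of 28 elements of NMP and mesoderm markers 1 was lower (3.57%, against 0.823% of all elements), in an intron of Slc25a21 nearest Pax9 (-1.17). Of 13 of pluripotency 1 was higher (7.69%), near Klf4 (1.01). Each of these last 2 shares rests on 1 element. None of 20 elements of neural crest and glia markers was called, nor was any with the block. The sums of these 3 lists and that of the endoderm markers overlapped between the days, but those of the NMP and mesoderm and of the endoderm markers were lower at day 6 in all 4 matched pairs, the former by very little in replicate 2 at 100 nM. The part of any such cells in the results above was not tested.

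Of 102 elements tested at 33 proneural and early neuronal genes 6 were higher (5.88%, against 2.65% of all elements) and 0 were lower (against 0.823%), and with the replicate block 9 and 0. They were at 6 genes, Sox11 (1.53), Sox4 (1.198), St18 (1.204), Map2 (1.18), Neurod4 (1.17) and Myt1 (1.12), of which Neurod4 is a proneural bHLH gene and Sox4 and Sox11 are SoxC genes of newborn neurons. The element 233524 bp upstream of Sox11 (chr12:27575438-27577047) was at 161, 130 and 96.7 at 100 nM and 145 and 152 at 500 nM on day 5. On day 6 it was at 419 and 387 at 100 nM and 435 and 340 at 500 nM, with no overlap. Of 93 elements of the Notch pathway 1 was higher (1.08%, against 2.65% of all elements), and 3 were with the block. The 1 lay 340963 bp upstream of Jag1, a Notch ligand gene, with 199 to 401 at day 5 and 734 to 874 at day 6 (log2 change 1.48 ± 0.19, SE, adjusted p = 0.0018).

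Glutamate and GABA receptor genes had 5 higher and 0 lower elements of 83 (6.02% and 0, against 2.65% and 0.823% of all elements), and 9 and 0 with the block. They included elements of Gria1 and Grin2a, of AMPA and NMDA receptor subunits. The element in intron 10 of Gria1 (chr11:57239534-57240331) had some of the closest replicates, at 44.9 to 63.3 on day 5 and 221 to 239 on day 6, with a log2 change of 2.14 ± 0.15 (SE, adjusted p = 0.00022). Axon guidance genes had 8 higher and 2 lower of 226 (3.54% and 0.885%, near the background), and 15 and 8 with the block. An element in intron 1 of Sema5a, a semaphorin gene, rose by 2.30 ± 0.23 (SE), from 56.02 to 114.7 up to 311 to 459. An element 201260 bp upstream of Sema3a, another semaphorin gene, fell by 1.59 on the log2 scale, from 447 to 629 down to 162 to 199. Adhesion genes had 7 higher and 3 lower of 143 (4.90% and 2.10%, against 2.65% and 0.823%), and 11 and 6 with the block. Both called elements of Cntn2, a contactin gene of axons, rose, the stronger one (chr1:132557899-132559543) from 86.2 to 154 at day 5 to 523 to 639 at day 6, with a log2 change of 2.27 ± 0.16 (SE, adjusted p = 0.00022). The lower ones were at the cadherin genes Cdh13 (-1.22), Cdh20 (-1.14) and Cdh7 (-1.62).

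Of 57 elements of the retinoic acid pathway 5.26% were higher and 1.75% lower, against 2.65% and 0.823% of all elements. Both called elements of Cyp26b1, which encodes an enzyme that degrades retinoic acid, were higher, and 1 of Crabp1, a retinoic acid-binding protein gene, was lower. The Cyp26b1 element printed above (chr6:84630144-84630898), in an intron of Exoc6b, was at 86.1, 73.8 and 76.5 at 100 nM and 80.8 and 89.7 at 500 nM on day 5. On day 6 it was at 310 and 286 at 100 nM and 321 and 364 at 500 nM, a log2 change of 1.95 ± 0.12 (SE, adjusted p = 0.00021). The days were far apart and replicates differed little.

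Of 75 elements of the FGF-ERK pathway 2 were higher (2.67%, as over all elements, 2.65%) and 3 lower (4%, against 0.823%). The lower ones were at Spry2, a feedback inhibitor of the pathway, and Etv1, one of its transcriptional targets, and the higher ones at Fgfr4 and Dusp4, a receptor and a phosphatase gene. The Spry2 element 23943 bp upstream of the TSS (chr14:105920256-105921269) was at 335, 335 and 577 at 100 nM and 317 and 561 at 500 nM on day 5, with replicate 3 the highest at both. On day 6 it was at 117 and 127 at 100 nM and 90.1 and 75.7 at 500 nM. The log2 change was -1.996 ± 0.237 (SE, adjusted p = 0.0013). Of 141 elements of the Wnt and BMP lists 2 were higher (1.42%), near Bmpr1b and Sp5, and 1 was lower (0.709%), in Sfrp1, a secreted Wnt inhibitor gene (-1.15).

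Of 46 elements at genes of early progenitors 3 were higher (6.52%) and 1 lower (2.17%), against 2.65% and 0.823% of all elements. Dlk1, an imprinted Notch-related gene, had 2 higher elements (1.12 and 2.19), and Mycn, a proto-oncogene of proliferating cells, had 1 of each (1.01 and -1.47). Of 66 elements at NFI, SoxE and gliogenic genes 1 was higher and 1 lower (1.52% each). The higher one, in intron 2 of Nfia (chr4:97805891-97807098), was at 83.9 to 133 on day 5 and at 478 and 232 at 100 nM and 316 and 170 at 500 nM on day 6, so that replicate 2 was well above replicate 3 at both concentrations. Its log2 change was 1.45 ± 0.25 (SE, adjusted p = 0.0058). The lower one, near Slc1a3, a glutamate transporter gene of glia, fell by 1.11. The element nearest the TSS of Sox9 was at 1689 ± 154 (SD, n = 5) and 1645 ± 133 (SD, n = 4), and that of Lin28b, a gene of early progenitors, at 224 ± 26.0 and 247 ± 70.2, and neither passed the threshold.

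Of 83 elements of SoxB and POU genes 1 was called, 35244 bp from the TSS of Sox1, a SoxB gene of NPs. It was at 745 to 1049 on day 5 and 303 to 479 on day 6, a log2 change of -1.28 ± 0.13 (SE, adjusted p = 0.00086). Of 41 elements of cell cycle genes 1 was lower (2.44%, against 0.823% of all elements), in exon 3 of Cdkn1a, a CDK inhibitor gene (-1.07). None of 53 Hox elements and none of 65 elements of TEAD-YAP and matrix genes was called by limma (1 and 2 with the block), where 3.47% of all elements were. The gene with the most higher elements was Stxbp6, with 4 of 11, and 11 genes had 3 or more, among them Nkx6-1, Tmem132e and Prpf18. Adgrl2, a latrophilin gene, had the most lower ones, 3 of 11, and Spry2, Bcl2l1 and Nkx2-9 were among those with 2.

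Elements that changed lay away from promoters. Of 6874 tested elements annotated as promoter, 7 were higher (0.102%) and 4 lower (0.0582%), against 454 and 147 of 9724 intergenic elements (4.67% and 1.51%) and 364 and 107 of 11469 in introns (3.17% and 0.933%). The promoters that rose were those of Gm15941, Wdr95, A130077B15Rik, Hpgds, Ano4, Mir6541 and 4933432I09Rik, and those that fell were those of Gstt2, Bcl2l1, ccdc198 and Spink1. They were named after their values were seen. The median distance from the TSS was 53993 bp for the higher and 43051 bp for the lower elements, and 21404.5 bp for tested elements outside promoters. Both sets were poor in G and C, with a median GC content of 46.9% and 45.7% against 50.0% of tested elements outside promoters. In the fifth of all tested elements with the lowest GC content 5.12% were higher and 1.96% lower, and in the fifth with the highest 0.0310% and 0. The part of base composition in the calls was not tested beyond the correction given above.

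Motif content differed between the higher and the lower elements. In the central 300 bp, CAGATG, an E-box bound by proneural and other bHLH factors, was found on either strand in 36.0% of the higher and 18.5% of the lower elements, against 20.9% of tested elements outside promoters and 18.4% of all tested. CAGCTG, another E-box, was in 28.1% and 15.5%, against 20.7% and 19.4%. The TEAD motif GGAATG was in 12.7% of the higher and 31.7% of the lower elements, against 18.7% and 16.8%. The SOX motif ACAATG was in 23.8% and 38.1%, against 18.5% and 15.8%. No stretch of letters can match more than 1 of these motifs in full, but matches can overlap in part and an element can hold several. Where only elements with a GC content below the median of all tested (52.1%) were counted, CAGATG was in 35.8% of the higher, 18.9% of the lower and 23.8% of those tested. TEAD was then in 12.3%, 32.1% and 22.2%, and SOX in 25.8%, 39.1% and 24.7%, so that the higher elements held the SOX motif about as often as tested elements of like base content.

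The remaining motifs are given with the shares of tested elements outside promoters and of all tested elements in parentheses. The FOX motif TGTTTAC was in 6.92% of the higher and 2.64% of the lower elements (5.02%, 4.40%), and in 6.87% of all tested elements with the lower GC content. The short NFI motif TTGGCA was in 17.6% and 13.6% (13.9%, 12.9%), the RFX motif in 2.70% and 0.755% (1.13%, 1.04%), TGATTTAT of HOX and PBX factors in 3.99% and 3.40% (1.84%, 1.51%) and the NK2 motif CACTTGA in 5.51% and 3.77% (3.56%, 3.16%). TAATTA of homeodomain factors was in 9.61% and 8.68% (6.76%, 5.68%) and the AP-1 motif TGACTCA in 4.69% and 6.04% (4.45%, 3.98%). Among tested elements with the lower GC content, TAATTA was in 9.47%, about as often as in the higher elements. In those elements the short NFI motif was in 16.2%, RFX in 1.32%, TGATTTAT in 2.61%, CACTTGA in 4.28% and AP-1 in 5.15%. The octamer ATGCAAAT of POU factors was in 2.11% and 1.51% (1.74%, 1.60%), the LEF and TCF motif CTTTGATC in 0.234% and 1.13% (0.778%, 0.733%) and the GLI motif in 0.234% and 1.13% (0.426%, 0.404%). The direct repeat of retinoic acid receptors was in 0.117% and 0 (0.0513%, 0.0435%), and the full NFI site was in 0 elements of both sets. These are counts of letters in a window and not of bound sites.

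**Figure D3:**
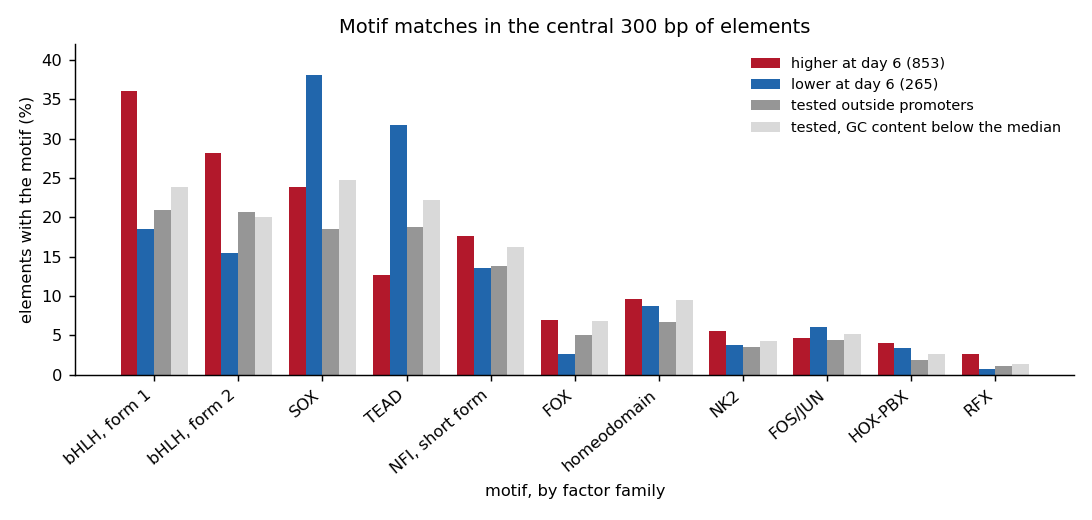
The share of elements (%) whose central 300 bp holds each of 11 motifs is shown for the 853 higher elements (red), the 265 lower elements (blue), all tested elements outside promoters (dark grey) and all tested elements with a GC content below the median (light grey), where bHLH forms 1 and 2 are CAGATG and CAGCTG. Form 1 reached 36.0% of the higher elements, and TEAD and SOX reached 31.7% and 38.1% of the lower ones.

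Samples of other days, which the comparison did not use, placed the change within the time course. The 853 higher elements had a median level of 11.5 in day 3 NMPs, 30.1 in day 4 p3, 96.0 in day 5 p3 and 261 in day 6 p3. The 265 lower elements had a median of 26.5 in NMPs, 295 at day 4, 235 at day 5 and 97.4 at day 6. At day 4, 843 of the higher and 93 of the lower elements were below their day 5 mean, as were 22923 of all 32208 tested. The medians over all tested elements were 299, 267, 302 and 323. The day 5 values in these medians helped to choose the elements and those of days 3 and 4 did not.

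Elements that had opened by day 4 were common among the lower ones. Over 4-fold higher levels in day 4 p3 than in NMPs, at an adjusted p under 0.01, were found for 4327 elements. Of the 3865 of them that were tested between day 5 and day 6, 171 were lower (4.42%, against 0.823% of all) and 5 higher (0.129%, against 2.65%), with a median change of -0.15. The 171 became 358 with the block, and leaving out 1 sample at a time gave 75 to 185. Of the 2428 elements that were over 4-fold lower in day 4 p3 than in NMPs, 312 were tested, and 5 were higher and 2 lower. Of 516 tested elements that were higher in p3 than in pMN at day 4, 5 rose (0.969%) and 7 fell (1.36%). Of 862 that were lower in p3, 25 rose (2.90%) and 20 fell (2.32%).

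**Figure D4:**
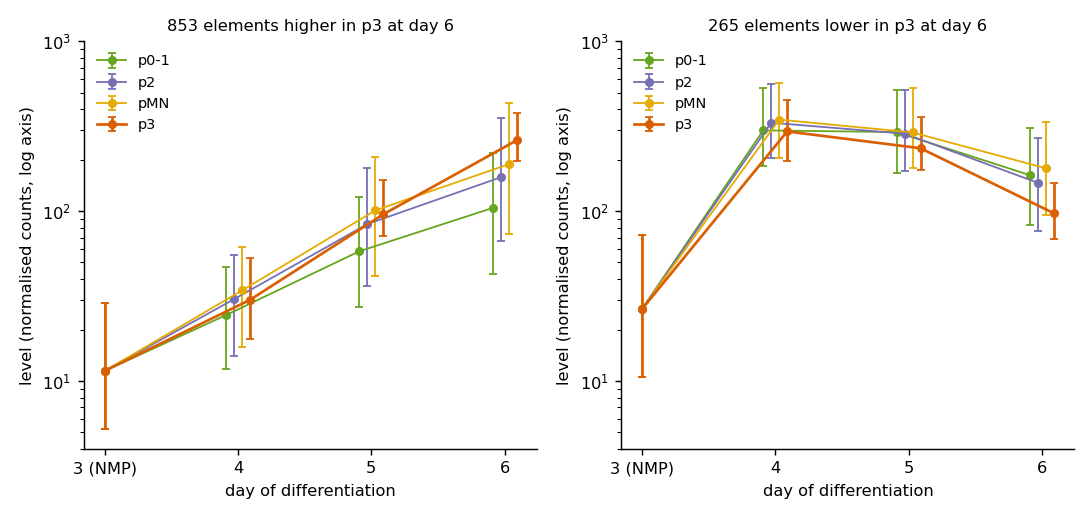
Medians (points) and quartiles (bars) of the level (normalised counts, log axis) are shown by day for the 853 elements higher (left) and the 265 lower (right) in p3 at day 6, in NMPs at day 3 and in each of 4 NP types from day 4, pooled over SAG. In p3 the medians went from 30.1 to 96.0 to 261 in the first set and from 295 to 235 to 97.4 in the second, and the medians of the other NP types moved the same way. The sets were chosen for their change in p3, so a smaller step in another type follows from the choice.

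The same contrast in the other NP types, with their own samples, called 1501 of 32812 elements in pMN (4.57%, with 3.6% higher and 0.975% lower), 1582 of 32424 in p2 (4.88%, with 2.85% and 2.03%) and 1495 of 31401 in p0-1 (4.76%, with 2.55% and 2.21%). Of the 853 elements higher in p3, 215 were also called higher in pMN, which is 25.2% of the p3 set and 18.2% of the pMN set. For p2 the number was 192 (22.5% and 20.8%) and for p0-1 152 (17.8% and 19.0%). Of the 265 lower elements, 50 were also lower in pMN (18.9% and 15.6%), 98 in p2 (37.0% and 14.9%) and 74 in p0-1 (27.9% and 10.7%). In pMN 513 of the higher elements and 229 of the lower ones passed the filter on the mean. Of these, 504 and 219 had a change of the same sign, with medians of 0.91 and -0.70, but no count over elements that passed a filter speaks for all members.

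The difference between p3 and pMN in the change was tested by an interaction over the samples of both types. It was called for 17 of 32758 elements (0.0519%), 7 with a more positive change in p3 (0.0214%) and 10 with a more negative one (0.0305%). With the replicate block it was called for 603 (1.84%), 342 (1.04%) and 261 (0.797%). Of the 853 higher elements 680 entered this test, with 4 among the 17 and 81 among the 603. Of the 265 lower elements 244 entered it, with 2 and 42. Both sets were chosen for their change in these p3 samples, which favours such a difference. The 17 fell to 0 without day 5 replicate 2 at 500 nM, to 1 without day 5 replicate 3 at 100 nM and to 8 without day 6 replicate 3 at 100 nM, and rose to 38 without day 5 replicate 1 and to 84 without day 6 replicate 2, both at 100 nM. With p2 in place of pMN 43 were called and with p0-1 433.

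Among the named ones, an element 206060 bp from the TSS of Chd7, a chromatin remodeller gene, rose in p3 from 187 ± 29.7 (SD, n = 5) to 443 ± 88.4 (SD, n = 4) and was at 363 and 311 in pMN. Its interaction was 1.42 ± 0.17 (SE, adjusted p = 0.0030 by limma). An element near Hmgn3, a nucleosome-binding protein gene, rose from 55.9 ± 10.9 to 173 ± 37.1 and was at 104 and 105 in pMN (1.54 ± 0.21). In the other direction, the element in intron 1 of Pipox, a peroxisomal oxidase gene, was at 1135 ± 78.5 and 570 ± 104 in p3, a change just under 2-fold, and at 1944 and 2187 in pMN, an interaction of -1.16 ± 0.14 (SE, adjusted p = 0.0030). Elements near Olfr224 and in an intron of Kank2 nearest Spc24 gave -1.35 and -1.29, and one in an intron of Sh3pxd2a nearest Mir6995 gave 1.17.

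Several of the p3 elements with the largest increases were low in pMN and did not enter that test or missed it. The elements with the largest increases were chosen for their rise in these p3 samples. A larger rise there than in pMN is therefore partly built into their interaction p-values. Near Pnoc the level in pMN was 10.6 and 26.7 on the 2 days, against 33.0 and 286 in p3. In the interaction without the filter the difference was 2.20 (adjusted p = 0.032, and 0.00028 with the replicate block). Near Ccn3 pMN was at 9.30 and 22.5, and the interaction of 2.08 ± 0.70 (SE) had an adjusted p of 0.056, and of 0.0014 with the block. Near Nsmce1 the rise was shared, from 31.2 to 481 in pMN. The Cyp26b1 and Bmpr1b elements rose in pMN as well, from 115 to 337 and from 94.8 to 522, with interactions of 0.42 each (adjusted p = 0.29 and 0.80). At Gli1, pMN was at 3231 and 3168, and the interaction of -0.53 ± 0.12 (SE) had an adjusted p of 0.040, and of 0.0055 with the block.

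**Figure D5:**
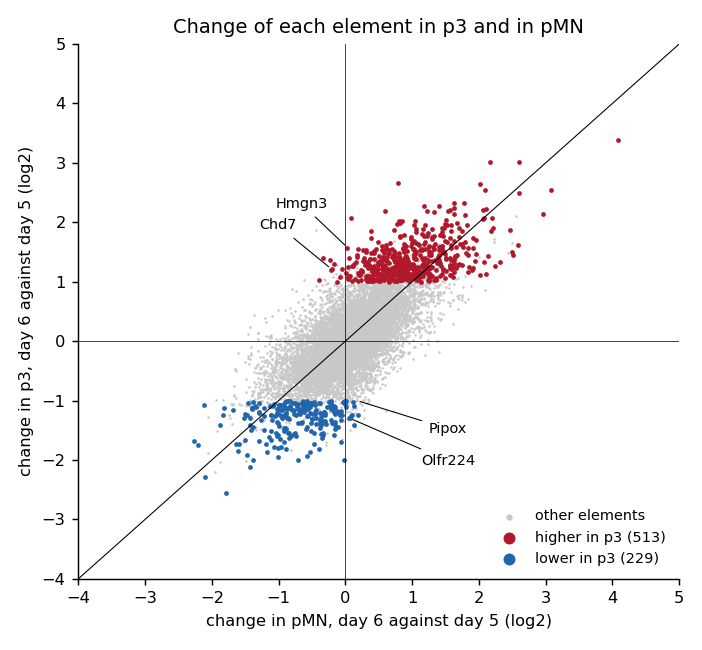
The change from day 5 to day 6 in p3 (log2, vertical) is plotted against that in pMN (horizontal) for elements that passed the filter in both, with the 513 higher in p3 in red and the 229 lower in blue and the diagonal marking equal change. Most red and blue points lie on the same side of 0 in both types, and the elements near Chd7, Hmgn3, Pipox and Olfr224 lie near 0 or beyond it in pMN.

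SAG concentration made no detectable difference to the change. The interaction of SAG and day was called for 0 of 32208 elements by limma (139 at an unadjusted p under 0.05), and for 0 with the replicate block (255), and a difference between 500 and 100 nM over both days for 0 (702). With 100 nM alone 0 elements were called between the days (6664 at an unadjusted p under 0.05, 656 at an adjusted p under 0.05 and over 2-fold), and with 500 nM alone 0 (4378 and 0). Each of these holds 2 or 3 samples a day. At Gli1 the change of the same-numbered pairs was -0.30 and -0.64 at 100 nM and -0.59 and -0.88 at 500 nM, a spread in which the concentrations overlap.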

How the data were processed

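CaTS-ATAC libraries of 67 samples were sequenced, and the authors aligned them to mm10 with the nf-core/atacseq pipeline and called elements with MACS. The deposited values were log2-scale values of the variance-stabilising transformation of DESeq2 for 111638 elements, made by the authors over all samples. Here the transformation was inverted to normalised counts and whole reads, from which depth was taken. Replicate number, SAG concentration and day came from the titles. The sample descriptions number some replicates differently, and a block with their numbers called 1101 elements, against 2197 with those of the titles.

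Elements with a mean above 100 normalised counts over the 9 p3 samples were tested on the deposited values by limma 3.58.1 in R 4.3.3, with day and SAG as terms, a variance trend and Benjamini-Hochberg adjustment. Called elements had an adjusted p under 0.01 and a change over 2-fold, where the change and its SE came from the same model on log2(normalised count + 1), a scale that understates changes of low elements. The interaction of day with NP type or SAG was tested in the same way. The p-values measure the spread between these samples. Same-numbered samples shared a differentiation, by the correlations given above, and the fit with the number as a block was an alternative. The statistics were tested on simulated data. Counts there were drawn independently for each sample, so that test cannot speak for samples that share a differentiation.

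Elements named were those with the largest changes, with the lowest p at listed genes, at promoters and with the lowest interaction p, and elements outside this rule are named for the lists they belong to. The members and lists were chosen with earlier results of these data known, and the 6 printed sequences after their values were seen. Sequences and motif matches were read from GRCm38 with pysam 0.24.0. Some marker genes are not reported here. Other scalings, filters, covariates, left-out samples and voom on the recovered reads were alternatives.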

Additional observations from a re-analysis of the deposited data

Results flagged for a closer look

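In 8 of 188 groups of 4 or 5 samples, the highest or lowest sample stood apart from the others by more than the limit of Dixon's ratio, and chance gives about 1 in 20. Replicate 1 of day 5 at 100 nM was apart at 4 elements. It was at 146 normalised counts near Prpf18, with the others at 100 to 108 (ratio 0.799), and at 283 near 1700108J01Rik, with the others at 221 to 232 (0.814). It was low at the ccdc198 promoter, at 195 against 341 to 383 (0.8291), and near Pygb, at 124 against 378 to 463 (0.846). Replicate 3 of day 5 at 100 nM was at 309 near Pax9, with the others at 224 to 239 (0.795). At day 6, replicate 3 at 500 nM was at 576 near Chd7, with the others at 394 to 403 (0.938), and at 304 at the 4933432I09Rik promoter, with the others at 216 to 227 (0.856). Replicate 2 of day 6 at 100 nM was at 47.8 near Adgrl2, with the others at 88.4 to 94.7 (0.898).

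The change from day 5 to day 6 differed between p3 and pMN by the interaction test of limma at 6 named elements. The difference in log2 change was 1.54 near Hmgn3, 1.42 near Chd7 and 1.17 near Mir6995. It was -1.29 near Spc24, -1.16 near Pipox and -1.35 near Olfr224. The part of the apart sample near Chd7 in its difference was not tested.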

How the results depend on the processing

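The number of elements changed over 2-fold was 1118, and it was 2197 with the replicate block, 4840 of 111638 without the filter, 1806 with all samples of the series in the fit, 1805 at an adjusted p under 0.05, 2069 with the correction for GC content and level together with the replicate block, and 2088 with the replicate block and centring. Leaving out single samples gave 506 to 972. It was 1751 without all samples of replicate number 2 and 1729 without those of number 3. It was 0 at 100 nM alone, at 500 nM alone and with the mean over SAG per replicate number, which have fewer samples. The number over 4-fold, 84, was 490 without the filter, 39 with the fold taken on the transformed scale, 132 without replicate number 3 and 0 in those same 3 small fits, and 50 to 106 without single samples. The alternatives with the mean over SAG, with a replicate number left out and with the block and centring were chosen after seeing the data.

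Elements higher in day 4 p3 than in NMPs and lower at day 6 numbered 171, and 358 with the replicate block, 281 with centring and also with all samples, 298 at an adjusted p under 0.05, 285 with the GC and level correction, 484 with that and the block, 265 without replicate number 2, 465 with the block and centring, 0 in the 3 small fits, and 75 to 185 without single samples. The difference between p3 and pMN was called for 17 elements, and for 603 with the replicate block, 71 without the filter, 33 without the variance trend, 289 at an adjusted p under 0.05, 580 with the block and centring, 43 with p2 and 433 with p0-1 in place of pMN, and 0 to 84 without single samples. The interaction with SAG had 0 calls by limma throughout, and an unadjusted p under 0.05 was met by 46 to 1412 elements.

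Signs changed at 4 elements that were not called. Near Lin28b (+53 bp) the change was -0.00068 with the GC and level correction, -0.056 without day 6 replicate 2 at 100 nM (up to 0.31 without another sample) and -0.20 without replicate number 2. Near Nfia (+601 bp) it was -0.011 with centring, -0.0065 with the GC and level correction, -0.0073 with that and the block, -0.068 without replicate number 3 and -0.012 with the block and centring. Near Sim1 (-1951 bp) it was -0.027, -0.012 and -0.011 under the first 3 of these and -0.015 with the block and centring, and near Ptch1 (-7090 bp) 0.086 at 100 nM alone. Over the 73 named called elements no alternative reversed a change, as the reuse of the same samples favours. Of the repeats, which here include those of the named differences between p3 and pMN, 1581 kept the call and 564 lost it. The cause of these shifts was not tested.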
